A study of Mus musculus with 12 samples.

Results

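A set of 81 genes stood below the vector control in mouse 393P cells carrying wild-type Zeb1 and above it in cells carrying the Zeb1 form labelled deficient. They were selected on their measured levels in the vector, WT and deficient libraries, from 12208 genes in the deposited count table. A level is given in CPM, the count divided by the sum of its library's column, times 1000000. The vector mean had to be at least 2 CPM, the WT mean at most 0.67 times vector and the deficient mean at least 1.2 times vector. Of 97 genes that met these 3 limits, 16 were then dropped by name, among them Lamb3, Wnt7a, Dsp, Cldn6, Crb3 and several Gm gene models, which left 81. All 81 are annotated as protein coding.

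393P is a mouse lung adenocarcinoma line that the labels call epithelial and non-metastatic. The 4 lines, untreated and grown in the same serum-containing medium, carried a GFP vector (GFP_Vector), wild-type Zeb1 (Zeb1_WT), Zeb1_deficient or Zeb1_mimetic. Each has 3 libraries labelled biological replicates, although the series design text speaks of 2. The series title concerns acetylation of Zeb1, and the names deficient and mimetic are taken to refer to it. Each form is represented by 1 line, so the Zeb1 form and other differences between lines cannot be told apart. Which promoter drives Zeb1 and how separate the cultures were is not stated, and p-values measure only how far these libraries spread, which may be technical.

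Zeb1, a transcription factor with zinc fingers, binds E-box sequences and recruits corepressors, among them the NuRD complex, to epithelial genes. Its expression drives the epithelial-mesenchymal transition, in which cells lose junctions and apical-basal polarity and gain motility.

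Zeb1 RNA was 28.4 to 33.6 CPM in the vector libraries, 234 to 247 in WT, 475 to 499 in deficient and 221 to 243 in mimetic, so the deficient line also held the most Zeb1 RNA, and the form and its level cannot be told apart. The column totals ran from 24.4 to 39.03 M counts per library (M, 1000000). The 9 epithelial markers in the table summed to 9491 to 10850 CPM in vector, 4471 to 4614 with WT, 8478 to 8604 with deficient and 6105 to 6275 with mimetic, while 4 fibroblast markers summed to at most 4.32 CPM in any library. Mitochondrially encoded genes held 0.814% to 0.998% of counts in vector, 0.698% to 0.722% in deficient, 0.482% to 0.504% in mimetic and 0.396% to 0.426% in WT, and the part of this in the results was not tested. Gene models that contain satellite repeats, all with names that the rule drops, summed to 4097 to 6031 CPM in vector and 5740 to 16530 in deficient. They summed to 62.6 to 312 in WT and 22.3 to 95.5 in mimetic, and their part in the results was likewise not tested. Vector replicate 3 and deficient replicate 3 differed most from the other libraries of their lines, with a mean chi-square per gene of 21.2 and 23.6 against replicate 2, where pairs of WT libraries gave 2.96 to 4.33. Without vector replicate 3 the rule gave 73 genes, 64 of them among the 81, and without deficient replicate 3 it gave 76, of which 71 were.

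The promoters of the set are shown because Zeb1 acts through E-boxes. RefSeq promoters (GRCm38.p6, the assembly of mm10; 250 bases before to 50 after a start) were found for 61 of the 81 genes, 83 promoters in all. Both strands were searched for CAGGTG and CAGGTA, E-box forms known to bind Zeb1. Either form occurred in 34 of the 83 promoters (41.0%), against 23.6% of 10328 promoters of genes with a vector mean of at least 2 CPM and 29.5% of all 32851 promoters. CAGGTG accounted for most of that, at 33.7% against 17.2% and 20.2%, while CAGGTA was found in 9.64% against 7.99% and 11.96%. The promoters of the set had a median GC content of 57.3% and 10 CpG pairs, where those of genes meeting the vector minimum had 61.3% and 21. Those genes also had a higher median vector mean, 42.1 CPM against 8.28 in the set. Base composition and expression level therefore differ between the groups compared. The AP-1 motif TGANTCA occurred in 9.64% of the set's promoters (8 promoters). It occurred in 4.87% of those of genes meeting the vector minimum and in 7.81% of all promoters. The TEAD motif GGAATG occurred in 10.8% against 11.6% and 14.7%, and the CRE motif TGACGTCA in 1.205% (1 promoter) against 3.30% and 1.79%. These are letter matches and not measured binding.

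The 250 bases before the start of 6 genes are printed 5′ to 3′ on the gene's strand, with the E-box letters in capitals. They are the genes with a vector mean of at least 5 CPM, a WT mean of at most 0.3 times vector and an E-box within these 250 bases. Fam107a (0.181 times vector), Nes (0.271), Mall (0.278) and Fos (0.299) met the same level limits, and Rnase4 (0.277) lay at the vector limit. The promoters searched for these genes held no match, so the printed genes do not stand for all strongly lowered ones. Cnksr1 lies outside these limits, at 3.29 CPM and 0.351 times vector, and was added for its pair of matches after its values were seen. Of the other promoters with more than 1 match, those of Ccdc120 (3 matches) and Spaca6 (2) start 9581 and 3817 bases from the annotated gene start, and 2310030G06Rik (2) is a gene model without an assigned name; these are not printed. Each printed start lies within 20 bases of the annotated gene start, and all windows lie upstream of the annotated gene apart from at most 5 bases. The windows are chr2:25456593-25456842 on the plus strand for Clic3, chr15:100636941-100637190 on the minus strand for Smagp, chr5:137921620-137921869 on the minus strand for Cyp3a13, chr10:31445959-31446208 on the minus strand for Tpd52l1, chr2:151572373-151572622 on the plus strand for Sdcbp2 and chr4:134238400-134238649 on the minus strand for Cnksr1.
Clic3: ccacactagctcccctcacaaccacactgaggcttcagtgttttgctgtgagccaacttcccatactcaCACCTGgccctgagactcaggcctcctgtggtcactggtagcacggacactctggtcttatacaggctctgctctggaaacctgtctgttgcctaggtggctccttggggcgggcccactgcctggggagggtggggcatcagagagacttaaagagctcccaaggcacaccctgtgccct
Smagp: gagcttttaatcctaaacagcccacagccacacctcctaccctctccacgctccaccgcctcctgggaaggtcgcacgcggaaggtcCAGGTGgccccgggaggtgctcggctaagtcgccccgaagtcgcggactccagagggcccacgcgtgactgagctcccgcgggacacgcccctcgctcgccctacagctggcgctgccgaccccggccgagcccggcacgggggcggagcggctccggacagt
Cyp3a13: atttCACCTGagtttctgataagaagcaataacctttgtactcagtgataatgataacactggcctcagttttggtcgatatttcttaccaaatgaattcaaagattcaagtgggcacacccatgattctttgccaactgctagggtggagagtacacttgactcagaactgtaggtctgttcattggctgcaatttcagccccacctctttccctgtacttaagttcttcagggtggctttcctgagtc
Tpd52l1: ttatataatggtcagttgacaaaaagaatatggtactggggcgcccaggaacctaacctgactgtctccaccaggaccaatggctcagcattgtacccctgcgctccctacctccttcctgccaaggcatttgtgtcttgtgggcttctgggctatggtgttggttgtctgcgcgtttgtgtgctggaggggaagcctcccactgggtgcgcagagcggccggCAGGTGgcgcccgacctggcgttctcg
Sdcbp2: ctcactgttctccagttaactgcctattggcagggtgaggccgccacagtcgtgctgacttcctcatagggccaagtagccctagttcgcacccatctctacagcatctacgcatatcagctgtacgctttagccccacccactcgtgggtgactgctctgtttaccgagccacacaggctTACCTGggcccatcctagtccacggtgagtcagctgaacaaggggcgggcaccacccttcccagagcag
Cnksr1: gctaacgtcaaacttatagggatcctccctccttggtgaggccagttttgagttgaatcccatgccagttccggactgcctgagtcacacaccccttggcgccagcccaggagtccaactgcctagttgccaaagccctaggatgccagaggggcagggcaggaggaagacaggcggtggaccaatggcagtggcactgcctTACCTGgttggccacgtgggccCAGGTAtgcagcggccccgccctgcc
In Cnksr1 the matches begin 48 and 26 bases before the start and in Tpd52l1 27 bases before it, while in Cyp3a13 the match lies at the far end of the window, 246 bases away.

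By construction WT lay below and deficient above vector in every gene, and these values are a description without a test. The median WT-to-vector ratio of means was 0.488, from 0.0386 in Stra6 to 0.667 in Trmt13, and 41 of the 81 genes were at or below 0.5. The median deficient-to-vector ratio was 1.36, from 1.202 in Bhlhe40 to 6.51 in 2310007B03Rik, and 28 genes lay under 1.3. All WT libraries were below all vector libraries in 79 genes (35.9% of genes with at least 2 CPM in vector show this), the exceptions being Lgr5 and Bbs1. All deficient libraries were above all vector libraries in 73 genes (33.6% of such genes). The genes were modestly expressed, with a median vector mean of 8.28 CPM where genes that met the vector minimum had 42.1, and 29 of the 81 lay under 5 CPM.

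**Figure D1:**
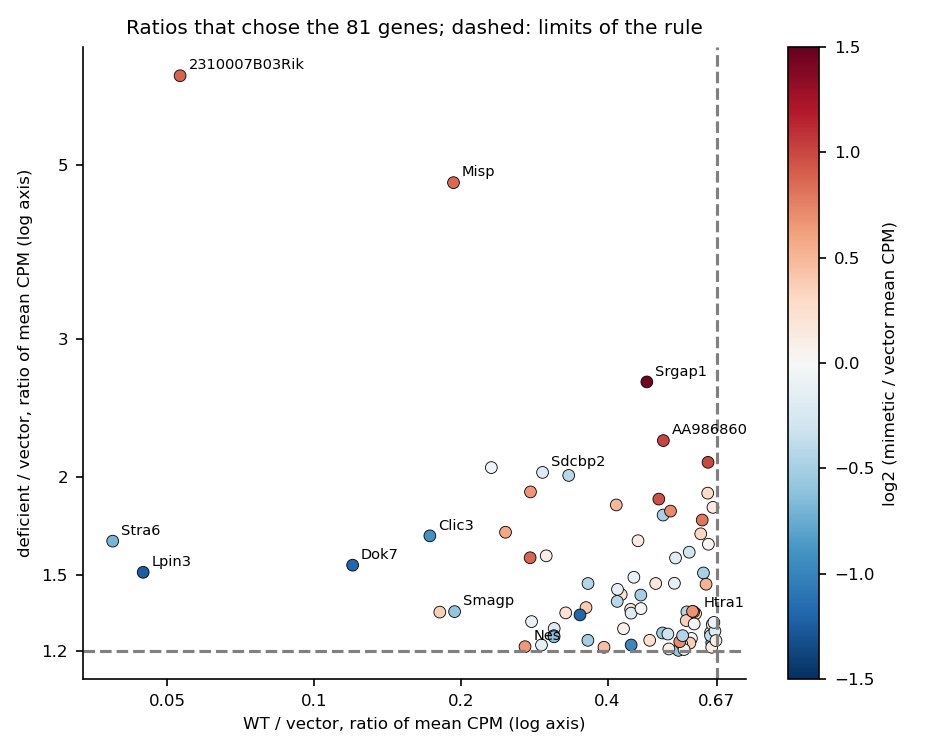
Ratio of WT to vector mean CPM (x, log axis) and of deficient to vector mean CPM (y, log axis) for the 81 genes, coloured by the log2 ratio of mimetic to vector mean CPM; dashed lines are the limits 0.67 and 1.2 of the rule. Most genes crowd near the limits, while 2310007B03Rik (0.0531 and 6.51), Misp (0.193 and 4.75), Lpin3 and Stra6 lie far from them, and mimetic colours of both signs occur throughout.

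Of 1345 genes with a vector mean of at least 2 CPM and a WT mean at most 0.67 times vector, 541 were also at most 0.67 times vector in deficient, 707 lay between 0.67 and 1.2, and 97 met the upper limit. The reverse pattern, with deficient at most 0.67 and WT at least 1.2 times vector, was met by 19 genes. Just inside the limits lay Bbs1 (2.04 CPM) and Flt4 (2.07) for the vector minimum, Trmt13 (0.667) and Stk40 (0.664) for the WT ratio, and Bhlhe40 (1.202) and Prrg2 (1.205) for the deficient ratio. Just outside lay Mslnl (1.96 CPM) and Pde3b (1.93), Rem2 (0.673) and Dusp28 (0.677), and Plek2 (1.196) and Lpcat4 (1.195).

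The mimetic libraries were not used to choose the genes, and mimetic against vector is therefore the comparison that can be tested, although the vector libraries did enter the rule. Mimetic levels of the set did not follow 1 direction. All 81 genes passed the filter on low counts; 21 were higher and 26 lower in mimetic than in vector and 34 were not called (edgeR's quasi-likelihood test, Benjamini-Hochberg adjusted p under 0.05 over 12027 genes). Of all genes tested, 28.6% were called higher and 30.9% lower, 59.5% in total, and the 81 genes, at 25.9% and 32.1%, stood near that background. Their median log2 fold change was -0.05, against 0.00 (-0.0044) over all genes. Scaled by library size only, 25 of the 81 were higher and 22 lower, which turns the order of the counts; over all genes that scaling moved the split from 3438 higher and 3720 lower to 4334 and 3004, and the median by less than 0.1.

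Placed among the other lines by its mean, mimetic lay between WT and vector in 39 genes, between vector and deficient in 32, above deficient in 9 and below WT in 1, Wnt7b. All mimetic libraries exceeded all WT libraries in 76 genes (36.0% of genes with at least 2 CPM in vector), and all deficient libraries exceeded all mimetic libraries in 57 (18.4%); WT and deficient levels chose the genes, so nothing is read from these shares. On the log2 scale mimetic was nearest to vector in 48 genes, to deficient in 23 and to WT in 10. Both placements by mean use column-sum CPM, without the scaling factors of the fit, and were not repeated with them. Skil, Mpzl3 and Tcp11l1 lay above vector by mean CPM but had negative fitted log2 fold changes (-0.016, -0.048 and -0.0088, not called). All mimetic libraries were above all vector libraries in 25 genes (background 37.7%) and below them in 21 (background 28.8%).

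**Figure D2:**
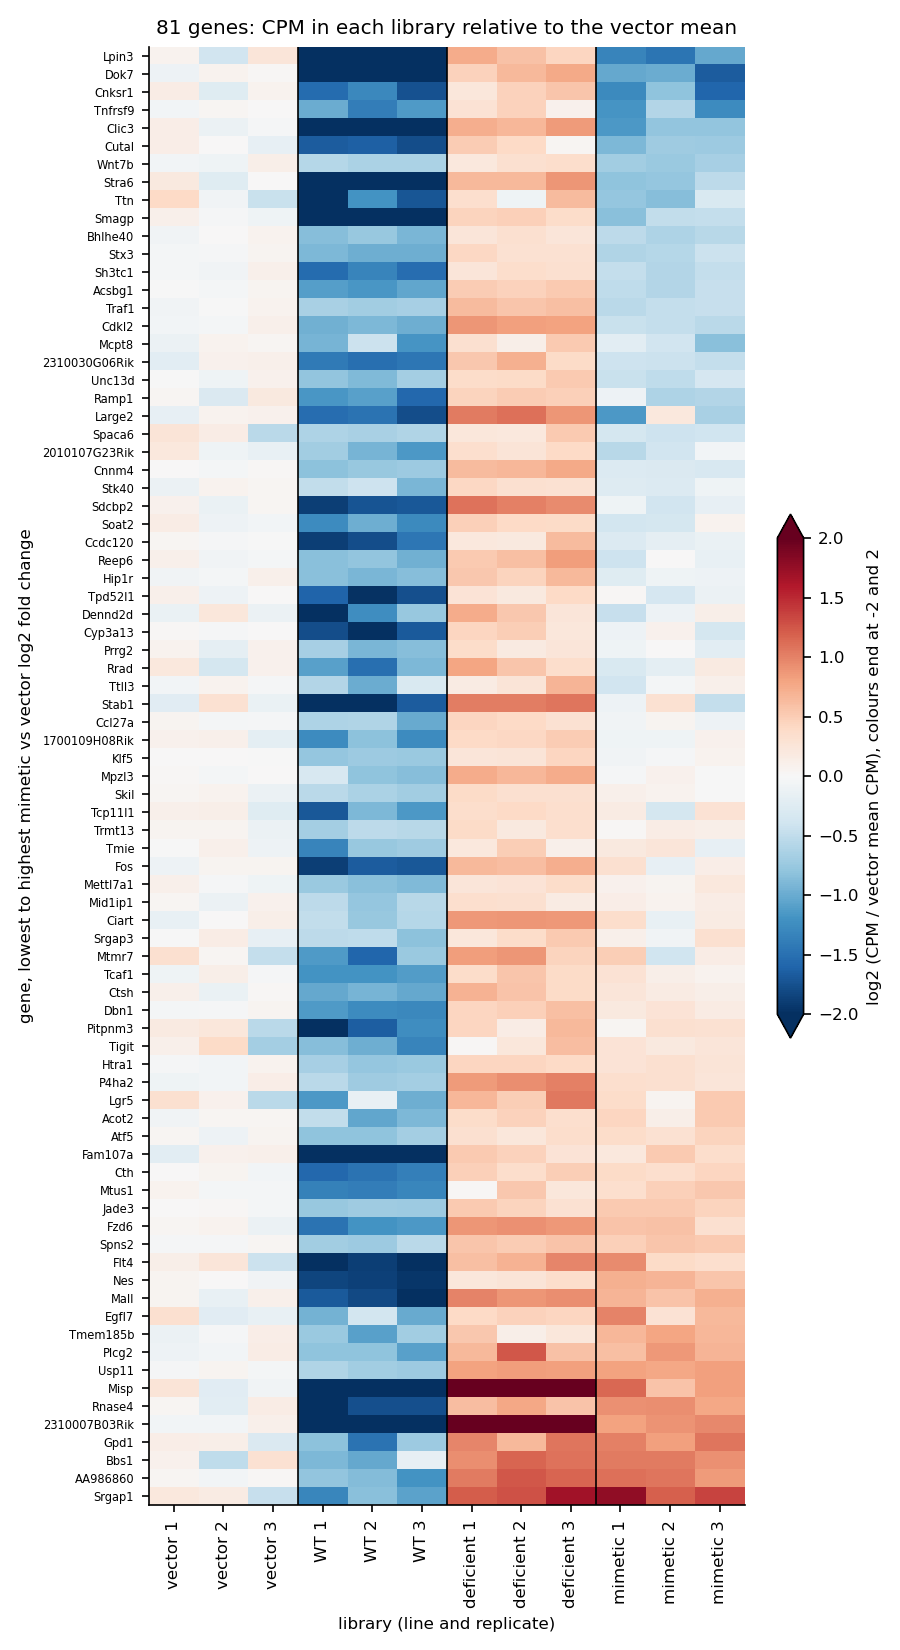
Each row is 1 of the 81 genes and each column 1 of the 12 libraries; colour is the log2 ratio of the library's CPM to the gene's vector mean, with colours ending at -2 and 2, and rows are ordered by the log2 fold change of mimetic against vector. WT columns are blue and deficient columns red by the choice of genes, while the mimetic columns run from blue, led by Lpin3 and Dok7, to red, ending with AA986860 and Srgap1.

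The genes were sorted by known role after their values were seen; 69 of the 81 have a role assigned. Exons of other genes overlap those of Wnt7b, Bhlhe40, Atf5, Mid1ip1, Hip1r, Fzd6, AA986860 and Gpd1 on the opposite strand. The same holds for Spns2, Egfl7, Mtus1, Ttn, Cdkl2, Tmem185b, Stab1, Trmt13 and Prrg2. Overlaps on the same strand occur in Cnnm4, Srgap1, Rnase4, Egfl7 and Spaca6, and the counts of all these genes are uncertain. Whether a role group differs from all genes in its calls was not tested. Among 22 secreted and surface genes 5 were higher and 8 lower in mimetic than in vector (28.6% and 30.9% of all genes tested). Htra1, a secreted serine protease that cleaves matrix proteins (chromosome 7, 130936111 to 130985660), had 196 to 213 CPM in vector, 118 to 129 with WT, 268 to 275 with deficient and 243 to 254 with mimetic. Its mimetic libraries lay above vector and below deficient without overlap, and the log2 fold change against vector was 0.21 (edgeR, adjusted p = 0.000364, SE 0.04). Cnnm4, a magnesium transporter of the basolateral membrane (chromosome 1, 36471620 to 36508764), had 98.7 to 103 CPM in vector, 57.3 to 61.5 with WT, 157 to 171 with deficient and 81.2 to 84.3 with mimetic. It fell in mimetic by 0.37 on the log2 scale (edgeR, adjusted p = 1.28e-06, SE 0.05), so its 4 lines formed 4 separate levels with mimetic between WT and vector.

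Several genes of low level in the secreted and surface group fell further, the intracellular Clic3 among them. Clic3, an intracellular chloride channel family member found in recycling compartments, had 6.33, 5.29 and 5.64 CPM in vector, 0.549, 1.34 and 1.09 with WT, 9.56, 9.13 and 10.3 with deficient and 2.59, 3.33 and 3.31 with mimetic. No 2 lines overlapped, and the log2 fold change of mimetic against vector was -0.97 (edgeR, adjusted p = 9.57e-05, SE 0.18). Smagp, a small transmembrane protein of epithelial cells, went from 14.7 ± 1.0 CPM in vector to 2.86 ± 0.71 with WT, 19.8 ± 0.75 with deficient and 9.74 ± 1.3 with mimetic (SD, n = 3; log2 fold change of mimetic -0.66). Stra6, the receptor for the retinol-binding protein, had 4, 6 and 1 counts in the WT libraries. Its level was 2.49 to 3.36 CPM in vector, 4.58 to 5.42 in deficient and 1.68 to 2.04 in mimetic, a fall of 0.76 on the log2 scale in mimetic (edgeR, adjusted p = 0.00408, SE 0.21). Tnfrsf9, a co-stimulatory TNF receptor best known on T cells, fell by 1.05 (SE 0.18), from 5.29 to 5.64 CPM in vector to 2.29 to 3.64 in mimetic, where it overlapped WT (2.1 to 2.74). The secreted ribonuclease Rnase4 went the other way, with 4.32 to 5.56 CPM in vector, 1.2 to 1.48 with WT, 7.38 to 8.57 with deficient and 8.52 to 9.5 with mimetic (log2 fold change 0.79, SE 0.13); the overlapping gene is Ang, another secreted ribonuclease. Apart from Wnt7b and Fzd6, given below, the other calls in this group were higher for Spns2 and Egfl7 and lower for Mcpt8 and Ramp1.

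Flt4, Egfl7 and Stab1 are genes best known in endothelium, and Tigit, Mcpt8 and Tnfrsf9 in immune cells. Of 6 endothelial markers 3 are in the table (Pecam1, Kdr and Vwf), summing to 0.307 to 1.41 CPM in vector, 0.839 to 1.51 with WT, 5.64 to 7.80 with deficient and 3.29 to 3.74 with mimetic, most of it Kdr in deficient (5.96) and mimetic (2.47). Of 9 immune markers Cd68 and Cd14 are in the table, at 50.8 to 63.5 CPM in vector, 26.4 to 28.0 with WT, 26.0 to 28.1 with deficient and 22.1 to 22.9 with mimetic. The other listed markers, including Cdh5 and Ptprc, were not analysed here, and the part of either cell type in these values was not tested. In bulk RNA, fewer cells expressing a gene and less RNA per cell cannot be told apart.

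The WNT pathway is represented at 3 levels. Wnt7b, a secreted WNT ligand of lung epithelium (chromosome 15, 85535437 to 85582473), had 134, 131 and 151 CPM in vector, 93.5, 89.8 and 89.1 with WT, 161, 174 and 177 with deficient and 86.0, 83.2 and 87.5 with mimetic. It was the only 1 of the 81 genes whose mimetic libraries all lay below the WT libraries, and it fell against vector by 0.77 on the log2 scale (edgeR, adjusted p = 1.72e-10, SE 0.05). Fzd6, a receptor for WNT ligands (chromosome 15, 39006034 to 39038188), had 12.6 to 14.3 CPM in vector, 4.9 to 6.13 with WT, 24.7 to 25.5 with deficient and 17.0 to 20.4 with mimetic. It rose against vector by 0.42 (edgeR, adjusted p = 0.000657, SE 0.09). Lgr5, the R-spondin receptor that marks intestinal stem cells, had 5.23, 4.41 and 2.87 CPM in vector, 1.89, 3.77 and 2.11 with WT, 6.65, 5.9 and 8.64 with deficient and 5.38, 4.33 and 5.97 with mimetic. Its mimetic libraries overlapped those of vector and of deficient, and the difference from vector was not called (log2 fold change 0.26, SE 0.23, adjusted p = 0.349, edgeR). Wnt7b and Fzd6 thus took opposite directions in mimetic. Of the 22 tested genes in a WNT list of 30, 10 were higher and 7 lower in mimetic, with a median log2 fold change of 0.20. Over all genes tested 28.6% were higher and 30.9% lower, and whether the list differs was not tested.

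**Figure D3:**
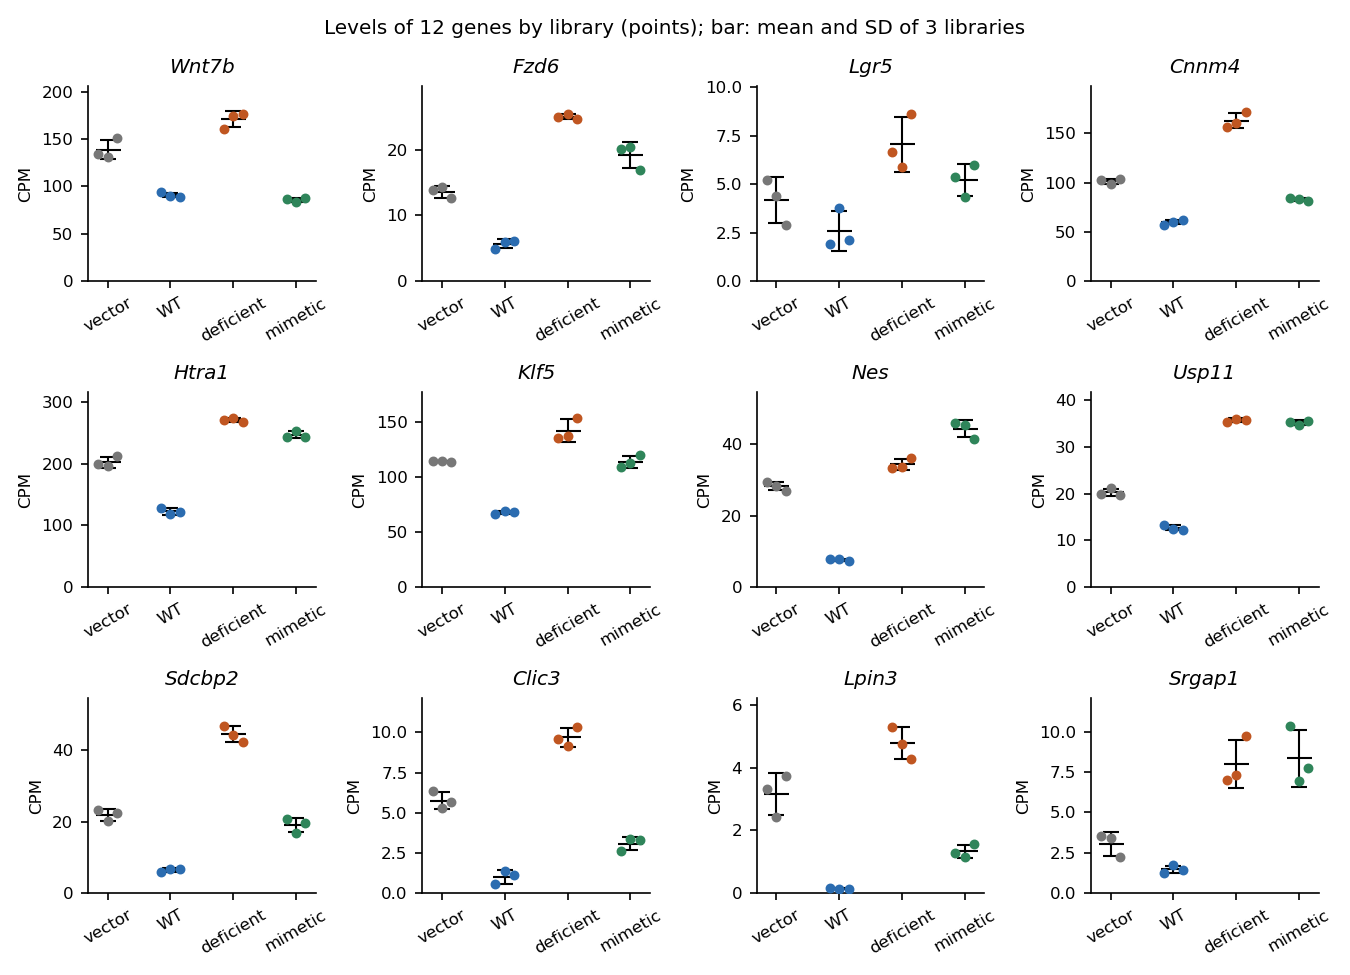
CPM (y, from 0) of 12 genes in the 3 libraries of vector, WT, deficient and mimetic; points are libraries, bars the mean and SD. Wnt7b, Cnnm4, Clic3 and Lpin3 lie below vector in mimetic, Fzd6, Htra1, Nes, Usp11 and Srgap1 above it, and Klf5 and Lgr5 overlap it, while Sdcbp2 has 1 mimetic library within the vector range.

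Among 7 transcription and chromatin genes 2 were higher, 1 lower and 4 not called in mimetic (28.6% higher and 30.9% lower of all genes). Bhlhe40, a basic helix-loop-helix repressor that also acts in the circadian clock, had 115 to 126 CPM in vector, 64.2 to 71.1 with WT, 142 to 151 with deficient and 78.4 to 84.1 with mimetic. It fell by 0.64 on the log2 scale (edgeR, adjusted p = 1.24e-09, SE 0.05). Atf5, a stress-response transcription factor, had 42.5 to 46.9 CPM in vector, 25.9 to 28.3 with WT, 52.98 to 57.7 with deficient and 56.1 to 61.7 with mimetic. It rose by 0.30 (edgeR, adjusted p = 0.000364, SE 0.06). Klf5, a Krüppel-like factor of epithelial progenitors, had 113 to 115 CPM in vector, 66.6 to 69.0 with WT, 135 to 154 with deficient and 109 to 120.0 with mimetic. Skil, a corepressor of SMAD proteins induced by TGF-beta, had 141 to 162 CPM in vector, 95.1 to 105 with WT, 191 to 199 with deficient and 152 to 165 with mimetic. Klf5 and Skil both overlapped vector in mimetic, with log2 fold changes of -0.08 (SE 0.05) and -0.02 (SE 0.05), not called. Fos, the AP-1 subunit, was 5.26 to 5.89 CPM in vector, 1.54 to 1.79 with WT, 8.66 to 9.42 with deficient and 5.05 to 7.1 with mimetic, and the clock repressor Ciart was 10.9 ± 1.0, 7.16 ± 0.67, 19.9 ± 0.18 and 11.9 ± 2.0 CPM in the same order (SD, n = 3); neither was called in mimetic.

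Of 9 membrane traffic genes 5 were lower and 2 higher in mimetic (30.9% and 28.6% of all genes tested). Unc13d, which primes secretory granules for fusion, had 66.4 to 74.2 CPM in vector, 38.0 to 43.8 with WT, 90.4 to 101 with deficient and 49.1 to 55.4 with mimetic (log2 fold change -0.51, SE 0.07). Stx3, the apical SNARE protein syntaxin 3, had 20.5 to 21.7 CPM in vector, 10.7 to 11.3 with WT, 25.9 to 27.8 with deficient and 13.8 to 15.5 with mimetic (-0.61, SE 0.08). In both genes the 4 lines did not overlap, and mimetic was closer to WT than to vector on the log2 scale. Sdcbp2, a syntenin family PDZ protein, had 20.1 to 23.3 CPM in vector, 5.93 to 6.79 with WT, 42.4 to 46.7 with deficient and 16.8 to 20.7 with mimetic. It fell by 0.28 (edgeR, adjusted p = 0.00839, SE 0.09), which was not called without mimetic replicate 2 (adjusted p = 0.0663). Hip1r, an actin and clathrin adaptor, was 39.1 to 44.2 CPM in vector, 21.7 to 22.9 with WT, 55.8 to 64.5 with deficient and 34.7 to 38.6 with mimetic; its fall of 0.22 (adjusted p = 0.0127, edgeR) was not called without vector replicate 3 (0.0711), without mimetic replicate 1 (0.0738) or with library size only (0.0821), where it was 0.14. Mall, a MAL family raft protein, rose by 0.58 (SE 0.11), from 6.91 to 8.2 CPM in vector to 11.4 to 12.6 in mimetic, with 1.8 to 2.4 in WT and 14.2 to 15.3 in deficient. Bbs1, a subunit of the ciliary BBSome, rose by 0.92 (SE 0.22), from 1.44 to 2.51 CPM in vector to 3.86 to 4.21 in mimetic. Reep6 was also called lower.

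Of 9 signalling genes 2 were higher and 5 lower in mimetic (28.6% and 30.9% of all genes tested). Srgap1, a GTPase-activating protein of the Slit-Robo pathway (chromosome 10, 121780991 to 122047315), had 3.51, 3.39 and 2.2 CPM in vector, 1.24, 1.71 and 1.44 with WT, 7.01, 7.34 and 9.74 with deficient and 10.3, 6.97 and 7.76 with mimetic. Mimetic and deficient overlapped and both stood clear of vector, with a log2 fold change of 1.39 for mimetic (edgeR, adjusted p = 2.81e-06, SE 0.19). Traf1, a TNF receptor adaptor induced by NF-kB, had 29.4 to 32.4 CPM in vector, 19.1 to 19.7 with WT, 45.2 to 47.6 with deficient and 21.3 to 22.3 with mimetic (-0.57, SE 0.07, adjusted p = 3.28e-07, edgeR). Cnksr1, a scaffold of RAS signalling, and Dok7, the activator of the muscle kinase MuSK, fell by 1.26 (SE 0.22) and 1.27 (SE 0.27) in mimetic. Cnksr1 was 3.29 ± 0.47 CPM in vector, 1.15 ± 0.18 with WT, 4.38 ± 0.50 with deficient and 1.44 ± 0.40 with mimetic, and Dok7 2.42 ± 0.15, 0.291 ± 0.17, 3.74 ± 0.38 and 1.06 ± 0.26 in the same order (SD, n = 3). Plcg2, a phospholipase of receptor signalling, was also called higher, and Cdkl2 and Stk40, both kinases, lower.

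Cytoskeletal genes were higher in mimetic for 3 of 7 and lower for 1 (28.6% and 30.9% of all genes tested). Nestin (Nes), an intermediate filament protein of progenitor cells (chromosome 3, 87971078 to 87980451), had 29.4, 28.4 and 27.0 CPM in vector, 7.89, 7.71 and 7.36 with WT, 33.2, 33.7 and 36.1 with deficient and 46.0, 45.5 and 41.5 with mimetic. Its mimetic libraries lay above all deficient libraries, which among the 81 genes held only for Nes and Tmem185b, and it rose against vector by 0.58 on the log2 scale (edgeR, adjusted p = 2.98e-07, SE 0.07). Misp, an actin-bundling protein that positions the mitotic spindle, had 8, 18 and 12 counts in the WT libraries, 1.77 to 2.47 CPM in vector, 9.26 to 10.2 in deficient and 3.06 to 4.6 in mimetic, a rise of 0.79 (edgeR, adjusted p = 0.00117, SE 0.19). The other calls were higher for Mtus1 and lower for Ttn, which encodes the muscle protein titin.

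Lipid and metabolic genes and other enzymes together made up 15 genes, of which 4 were higher, 2 lower and 9 not called in mimetic. Over all genes tested the shares were 28.6% higher and 30.9% lower. Lpin3, a lipin phosphatidate phosphatase (chromosome 2, 160880670 to 160906002), had 5, 4 and 4 counts in the WT libraries. It had 3.33, 2.43 and 3.74 CPM in vector, 5.31, 4.77 and 4.29 in deficient and 1.27, 1.15 and 1.57 in mimetic, a fall of 1.32 on the log2 scale in mimetic (edgeR, adjusted p = 3.07e-05, SE 0.22). Acsbg1, a long-chain acyl-CoA synthetase, had 100.3 to 107 CPM in vector, 46.1 to 50.4 with WT, 142 to 149 with deficient and 69.0 to 75.1 with mimetic (-0.59, SE 0.05, adjusted p = 3.04e-09, edgeR), again 4 levels without overlap. Gpd1, the cytosolic glycerol-3-phosphate dehydrogenase, rose by 0.90 (SE 0.17), from 3.13 to 4.19 CPM in vector to 6.78 to 8.01 in mimetic, within the deficient range of 6 to 8.03. Usp11, a deubiquitinase, had 19.7 to 21.1 CPM in vector, 12.2 to 13.3 with WT, 35.4 to 36.1 with deficient and 34.7 to 35.6 with mimetic, so the mutants overlapped (0.72 against vector, SE 0.07, adjusted p = 7.64e-09, edgeR). P4ha2, a collagen prolyl hydroxylase, was 15.6 ± 1.3, 10.0 ± 0.61, 29.8 ± 1.5 and 19.3 ± 0.66 CPM in vector, WT, deficient and mimetic (SD, n = 3). Its rise of 0.23 in mimetic (adjusted p = 0.0249, edgeR) was not called without vector replicate 1 (0.109) or 2 (0.0782), or without mimetic replicate 1 (0.0727) or 2 (0.063). Mid1ip1, which stimulates fatty acid synthesis, and Cyp3a13, a cytochrome P450, were not called, at 45.6 ± 1.3 against 42.0 ± 3.0 CPM and 6.51 ± 0.95 against 7.03 ± 0.086 in mimetic and vector (SD, n = 3).

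Among genes without an assigned role, 2310007B03Rik, singled out after its values were seen for the widest range between WT and deficient, had 5, 7 and 2 counts in the WT libraries, 2.64 to 2.95 CPM in vector, 17.2 to 19.2 in deficient and 4.8 to 5.32 in mimetic (log2 fold change against vector 0.81, SE 0.14). AA986860 was 7.93 to 8.47 CPM in vector, 3.63 to 4.77 with WT, 17.1 to 19.6 with deficient and 14.9 to 17.8 with mimetic (0.94, SE 0.11). Cutal fell by 0.84 (SE 0.17), from 4.07 to 5.03 CPM in vector to 2.46 to 2.80 in mimetic, with 1.34 to 1.48 in WT and 4.68 to 6.53 in deficient. Fam107a was 5.97 ± 0.69, 1.08 ± 0.24, 8.03 ± 0.72 and 7.73 ± 0.84 CPM in vector, WT, deficient and mimetic (SD, n = 3), and its mimetic libraries lay above vector without a call (0.30, SE 0.14, adjusted p = 0.0773, edgeR).

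**Figure D4:**
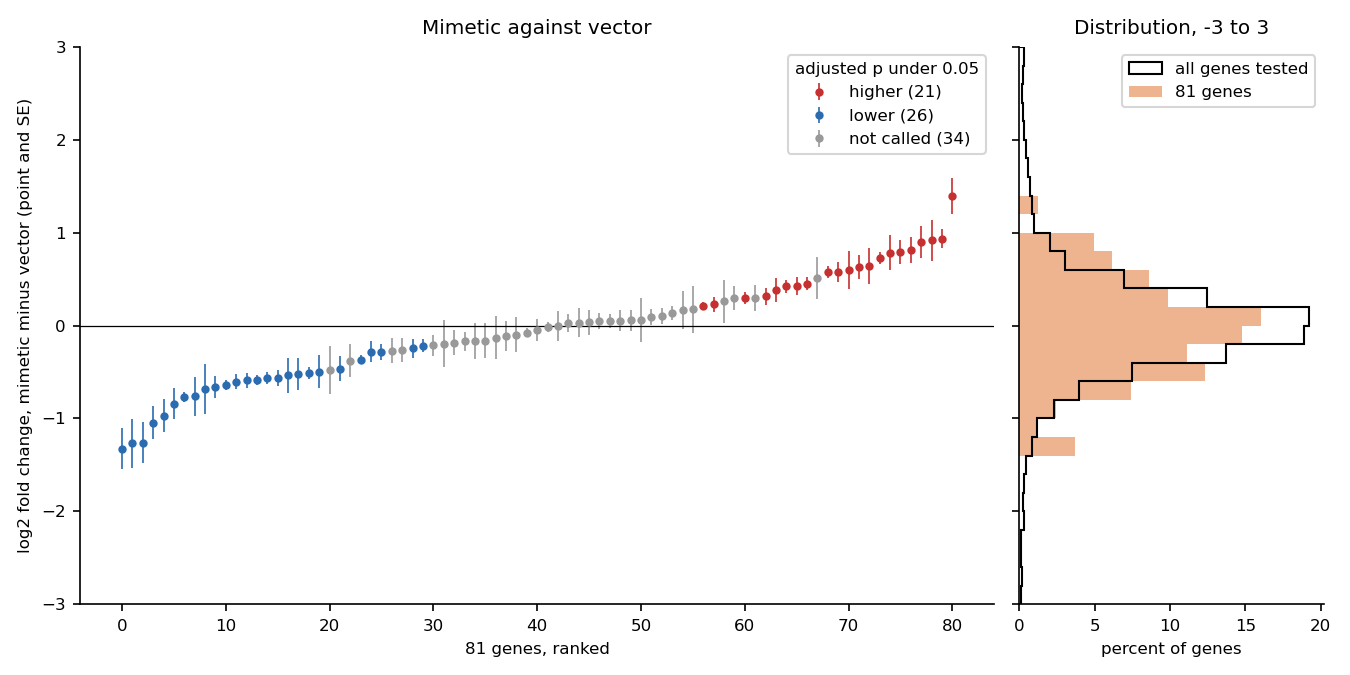
Left, log2 fold change of mimetic against vector (point) with its SE (bar) for the 81 genes in rank order, coloured by call: 21 higher, 26 lower, 34 not called. Right, the distribution of the same quantity as percent of genes, for the 81 genes and for all genes tested, drawn between -3 and 3; both centre near 0.

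Where a promoter was matched, mimetic calls are set beside the E-box search. Of 31 genes with CAGGTG or CAGGTA in a promoter, 5 were higher and 14 lower in mimetic than in vector, with a median log2 fold change of -0.21. Of 30 genes without either form, 10 were higher and 8 lower, with a median of 0.05. Of all genes tested 28.6% were called higher and 30.9% lower, and whether the genes with and without a match differ was not tested. The median WT-to-vector ratio was 0.427 with a match and 0.519 without, and the median deficient-to-vector ratio 1.35 and 1.39.

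The wider pathways of the members were read from lists of which 7 of 19 hold at least 1 of the 81 genes. Of all genes tested 28.6% were called higher and 30.9% lower, and whether any list differs from that was not tested. In mimetic against vector, the TGF-beta and BMP list (with Skil) had 16 higher and 5 lower of 27 tested and a median log2 fold change of 0.27, and the immediate early list (with Fos) 9 and 2 of 24 (0.11). Lower calls were the more frequent in the cytokine and NF-kB list (with Tnfrsf9), 6 higher and 13 lower of 26 (-0.31), and in the hypoxia and glycolysis list (with P4ha2), 6 and 15 of 29 (-0.22). The epithelial regulator list (with Klf5) had 5 and 8 of 18 (-0.15), and the epithelial vesicle list (with Stx3) 2 and 12 of 18 (-0.54). In the order given, these lists name 29, 25, 37, 30, 27 and 23 genes. Those that were not tested, most of them absent from the count table, are left out of the counts. The other 12 lists hold none (0) of the 81, which for the cell junction and polarity lists follows from the names dropped: Dsp, Pkp3 and Cldn6 of the first and Crb3 of the second met all 3 limits. Wnt7a of the WNT list was dropped in the same way.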

How the data were processed

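RNA of 12 libraries, 3 from each of 4 393P lines, was sequenced as 3' tags (QuantSeq forward kit, paired-end), per the labels' protocols. The deposited values are raw counts, not normalised; STAR and mm10 are named in the submitters' processing notes, while no source used here gives the counting tool, strand setting or annotation. A 3' tag count stands for transcripts rather than transcript length. With no strand setting given, whether overlapping or antisense genes were counted apart is not known. Exons of 33 of the 81 genes overlap another gene, 28 on the opposite strand. Any exon was taken, not only the 3' end where tags lie. The smallest listed count is 1, so genes with 0 counts in any library are not analysed here. Coordinates are from GENCODE M21 (GRCm38), in which 12195 of 12208 IDs were found.

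The members, gene lists and named genes were chosen with earlier results of these data known. Column-sum CPM gave the members and printed levels. Fold changes come from edgeR 4.0.16 (R 4.3.3): filterByExpr (12027 genes kept), TMM factors, a quasi-likelihood fit over all 12 libraries with a coefficient per line, two-sided, Benjamini-Hochberg over all genes; SE is the log2 fold change divided by the square root of F. Named genes are the 12 with the highest line mean, the 8 highest and 8 lowest mimetic changes, the 6 most extreme ratios per side at 5 CPM or more in vector, all members of a list and those at the limits; other genes named were chosen after their values were seen. Alternatives were DESeq2 1.42.0, limma-voom (limma 3.58.1), RLE or no scaling factors, other filters, a fit of 2 lines, a replicate block, other limits of the rule and leaving out libraries. The fit was tested on simulated data. Replicates of a line differed by more than sampling noise.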

Additional observations from a re-analysis of the deposited data

How the results depend on the processing

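The number of genes meeting the rule was 69 with TMM-scaled levels (67 of them among the 81), 77 with line medians, and 73 to 86 when 1 library was left out. It was 52 with a vector minimum of 5 CPM, and 16 with WT at most 0.5 and deficient at least 1.5 times vector. Across the 14 alternative fits, 19 to 25 of the 81 were called higher and 18 to 26 lower in mimetic than in vector; the 18 came from the filter of at least 5 CPM in 3 libraries, which tested 61 of them. When 1 library was left out, all mimetic libraries were above all vector libraries in 26 to 31 of the 81 and below them in 22 to 26. Leaving out a library can only keep or raise these counts, so the ranges do not show how stable they are. With TMM-scaled levels, an alternative chosen after seeing the data, the counts were 23 and 24. Of 39 named genes 31 were called, and 28 of these kept direction and call in every fit that tested them, the exceptions being Hip1r, Sdcbp2 and P4ha2; Fam107a was called with library size only (adjusted p = 0.0284). Of the uncalled genes, Skil (-0.069 to 0.023 when 1 library was left out) changed sign with library size only (0.057), with the 5 CPM filter (0.00085), without vector replicate 2 (0.023) and without mimetic replicate 3 (0.016). Mid1ip1 (-0.011 to 0.094) did so without vector replicate 2 (-0.011). Ciart (-0.065 to 0.175) and Fos (-0.080 to 0.154) did so without vector replicate 1 (both -0.020) and without mimetic replicate 1 (-0.065 and -0.080). With only the gene strand searched, 22.9% of the set's promoters held an E-box form, against 14.1% for genes meeting the vector minimum. Both shares are lower since fewer letters are searched. With the replicate block 21 members were higher and 25 lower (3502 and 3748 of all genes). Same-numbered vector and mimetic libraries deviated together with correlations of -0.162, 0.0283 and -0.126, and other pairs with up to 0.159. With deviations taken from means of 3 libraries per line, these correlations cannot show whether the numbers pair the samples. Genes under 5 CPM rest on few tags, and 16 of those 29 were called.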

Other observations

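The set was spread over the chromosomes, with 10 genes on chromosome 2 (12.3% of the set, where 8.08% of genes with at least 2 CPM in vector lie) and none (0) on chromosome 18. In 10 cases a pair of neighbouring members lay less than 1000 kb apart. The closest were Cutal and Traf1, 49.6 kb apart on chromosome 2, both lower in mimetic than in vector. Jade3, a scaffold of a histone acetyltransferase complex, and Usp11, 184 kb apart on chromosome X, were both higher in mimetic, by 0.42 (SE 0.07) and 0.72 (SE 0.07) on the log2 scale. Jade3 had 26.6 to 27.8 CPM in vector, 16.1 to 16.6 with WT, 33.6 to 39.4 with deficient and 37.0 to 39.2 with mimetic, and it was named after its values were seen. Dok7 and Sh3tc1, another pair, were both lower, while in the pair of Misp and Reep6 the first was higher and the second lower. The remaining pairs each held a gene that was not called. Whether neighbouring members are more frequent, or move together more, than other genes was not tested. These positions are descriptions, and copy number was not measured.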
